A study of Mus musculus with 8 samples.

Results

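Cortical thymic epithelial cells (cTECs) and CD45+ thymic cells were compared for their microRNAs (miRNAs), on the 2 cTEC arrays and the 3 CD45+ arrays of a slide of 8. Membership followed the labels alone, and all 1040 mouse probes of the deposited table, with 1 probe per miRNA, were examined on these 5 arrays. All groups were NOD wildtype females of 4 weeks, untreated as far as the labels say, and every replicate held RNA of sorted cells from pooled thymi, with 10 to 12 mice per isolation. The cTEC gate took CD45-, EpCAM+, MHC II+, Ly51+ cells, and the CD45+ gate took EpCAM-, CD45+ cells. The other 3 arrays held medullary thymic epithelial cells (mTECs), gated like cTECs but Ly51-, and they entered the fit for the spread between replicates.

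miRNAs are short RNAs that guide Argonaute proteins to messenger RNAs, mostly through the seed, bases 2 to 8 of the mature strand. In the thymic cortex, epithelial cells present peptides to developing T cells and steer their positive selection, while CD45 marks the haematopoietic cells around them, most of which are thymocytes. miRNAs of the miR-142 and miR-181 families are known from blood and lymphoid cells, and those of the miR-200 family and miR-205 from epithelia. In sorted bulk RNA, a change in the share of a cell type and a change in RNA per cell cannot be told apart.

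The miRNAs that carried the comparison are shown first. RefSeq, with the build GRCm38.p6, held a mature strand identical to the probe's target for 828 of the 1040 probes, for 220 of the 309 tested miRNAs and for 74 of the 95 called. Among those lower in cTECs, the miRNAs of the miR-17-92 cluster and its paralogs are shown because they fell as families of shared seed, miR-181a and miR-142-3p because they are lymphoid, and miR-21 because its fall was the largest among the miRNAs measured on all 5 arrays. Capitals mark the seed.
miR-17: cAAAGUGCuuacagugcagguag
miR-20a: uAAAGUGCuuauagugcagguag
miR-106b: uAAAGUGCugacagugcagau
miR-93: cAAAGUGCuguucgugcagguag
miR-19b: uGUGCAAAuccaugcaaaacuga
miR-92a: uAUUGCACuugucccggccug
miR-181a: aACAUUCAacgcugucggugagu
miR-142-3p: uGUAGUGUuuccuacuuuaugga
miR-21: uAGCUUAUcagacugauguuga
The mature strands of miR-17 (chr14:115043684-115043706, plus strand) and miR-20a (chr14:115044183-115044205) lie in the miR-17-92 cluster, and those of miR-106b (chr5:138165787-138165807, minus strand) and miR-93 (chr5:138165574-138165596) lie within Mcm7. The strands miR-19b and miR-92a have copies on chromosomes 14 and X. The miR-21 strand (chr11:86584120-86584141, minus strand) lies within Vmp1.

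Among the miRNAs higher in cTECs, miR-125b-5p is shown as a large rise of moderate G and C content, and the rest for their high content of these bases. The seed is again in capitals.
miR-125b-5p: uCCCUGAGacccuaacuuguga
miR-762: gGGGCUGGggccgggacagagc
miR-1224: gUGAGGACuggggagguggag
miR-149*: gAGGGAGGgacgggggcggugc
miR-2861: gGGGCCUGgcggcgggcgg
miR-2137: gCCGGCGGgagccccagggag
The miR-125b-5p strand comes from 2 genes and lies at chr16:77646279-77646300 and at chr9:41581940-41581961, the latter within the long non-coding RNA Mir100hg. The miR-762 strand (chr7:127708534-127708555, plus strand) lies within Bcl7c, and the miR-149* strand (chr1:92850421-92850442, plus strand), the passenger strand of miR-149, lies within Gpc1.

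Members of the let-7 family, which share the seed GAGGUAG, differed in direction on the scaling used. Here capitals mark the bases that differ from let-7a.
let-7a: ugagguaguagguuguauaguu
let-7b: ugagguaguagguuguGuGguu
let-7c: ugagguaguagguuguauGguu
let-7g: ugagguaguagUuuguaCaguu
let-7i: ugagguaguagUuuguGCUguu
Such close relatives, like miR-17 with miR-20a, may each hybridize in part to the other's probe, and their values are uncertain to that extent.

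The cTEC arrays were dimmer than the CD45+ arrays. The scanner software calls each spot well above background or not, and of the 1040 probes 192, 229 and 169 passed on the CD45+ arrays and 122 and 98 on cTEC replicates 1 and 2. The 75th percentile of the signal before scaling was 10578, 11408 and 8323 on the CD45+ arrays and 2910 and 1364 on the cTEC arrays. Signals were therefore scaled to a common 75th percentile over the 65 probes well above background on all 8 arrays. After scaling, the weakest probe well above background stood at 114, 80.2 and 144 on the CD45+ arrays but at 342 and 621 on cTEC replicates 1 and 2. Values under 621 were set to that floor (9.28 in log2), so a miRNA that lay under it on the cTEC arrays has an understated fall. The replicates were alike in profile: over the 309 tested miRNAs, floored log2 signals correlated at r = 0.996 between CD45+ arrays and at 0.966 between the cTEC arrays, against 0.676 to 0.749 across the groups, a description of arrays that share 1 slide.

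miRNAs known from lymphocytes and those of the miR-17-92 clusters were lower in cTECs, and a smaller set of miRNAs, many of them rich in G and C, was higher. Of 309 miRNAs tested with limma, 95 passed an adjusted p of 0.05 (30.7%), 62 of them lower in cTECs (20.1%) and 33 higher (10.7%). An absolute log2 fold change over 1 was reached by 46 of those lower and 26 of those higher. The scaled arrays of the groups did not overlap for any of the 95, but neither did they for 82.5% of all miRNAs tested. On 785 of the 1040 probes no array of the 5 was well above background, and 83 tested miRNAs lay at the floor on all 8 arrays. Among the 68 miRNAs that passed this call on all 5 arrays, 28 were higher in cTECs, 21 were lower and 19 did not reach the threshold. The split of the calls rested on the scaling. With the percentile over all mouse probes it was 6 higher and 114 lower, with the deposited values 26 and 112, with normexp background correction 196 and 55, and with no scaling between arrays 2 and 111.

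**Figure D1:**
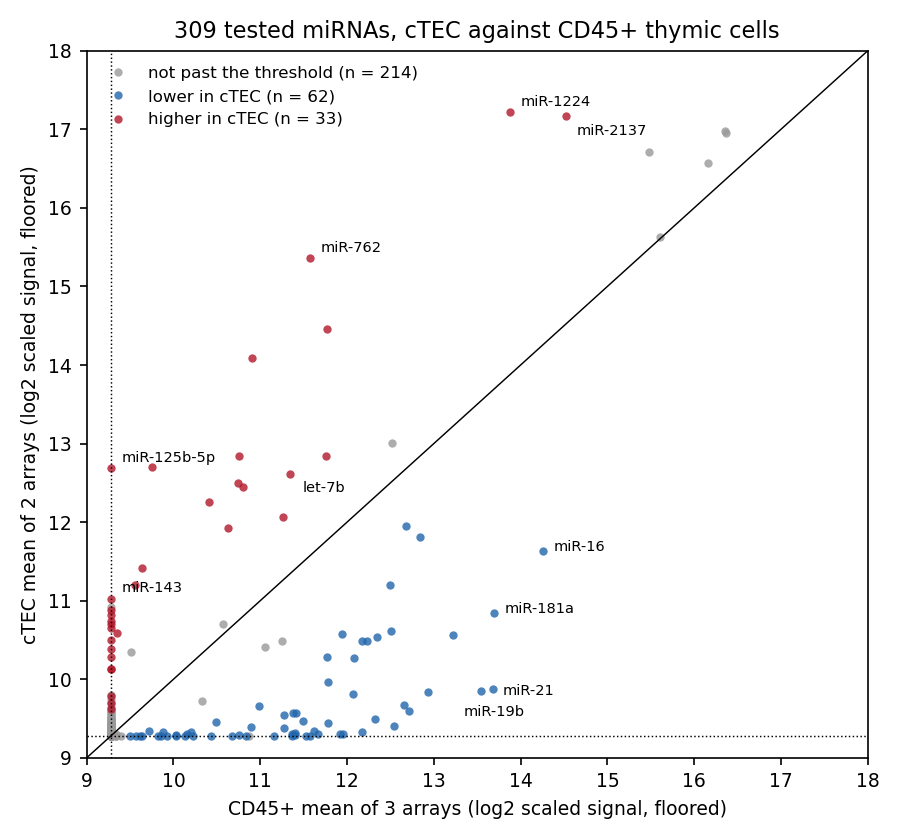
Mean log2 scaled signal of each of the 309 tested miRNAs on the 3 CD45+ arrays (x axis) and the 2 cTEC arrays (y axis), both floored at 9.28 (dotted lines); the solid line marks equal signal. The 62 miRNAs called lower in cTECs lie below the line, many of them on the cTEC floor, and the 33 called higher lie above it.

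The miR-17-92 cluster and its paralogs miR-106a-363 and miR-106b-25, known for driving the growth of lymphoid progenitors, were lower in cTECs as a group. Of 12 tested members 11 were lower, 0 were higher and the median log2 fold change was -2.49, against 0 over all tested miRNAs, of which 20.1% were lower. With the percentile taken without the miRNAs called higher, a scaling added after seeing the data, 9 of the 12 were called lower. The list's miR-363 is miR-363-3p on the table, where it read under the floor on all 5 arrays. The miR-20a probe read 6352, 7043 and 6088 on the CD45+ arrays and 902 and 743 on the cTEC arrays, a log2 fold change of -2.99 ± 0.09 (SE, adjusted p = 4.38e-06). Both cTEC signals were far under the weakest CD45+ signal and close to the floor. The miR-17 probe read 6533, 7206 and 6534 on the CD45+ arrays and 862 and 661 on the cTEC arrays, -3.12 ± 0.10 (SE, adjusted p = 4.38e-06). The miR-19b probe read 11351, 13374 and 11146 on the CD45+ arrays and 1261 and 634 on the cTEC arrays, -3.69 ± 0.26 (SE, adjusted p = 0.000113). On cTEC replicate 2 neither miR-17 nor miR-19b was well above background, so the fitted falls lean on the floor there. The miR-106b probe read 4473, 4977 and 4466 on the CD45+ arrays and 551 and 578 on the cTEC arrays, -2.85 ± 0.08 (SE, adjusted p = 4.38e-06). Both its cTEC values lay under the floor and 1 cTEC array was well above background, so its fall and small standard error lean on the floor. The probe of miR-92a, whose seed differs from that of miR-17, read 5776, 6163 and 5562 on the CD45+ arrays and 1333 and 1863 on the cTEC arrays, -1.89 ± 0.20 (SE, adjusted p = 0.000563), and was well above background on all 5 arrays. All 6 tested miRNAs with the seed AAAGUGC were lower, with log2 fold changes from -3.12 to -2.25.

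The lymphocyte list held 9 miRNAs, and all 9 were lower in cTECs, with a median log2 fold change of -1.84, where 20.1% of all tested miRNAs were lower. The 9 calls rested on the scaling: with normexp background correction 7 were lower, and with the percentile taken without the miRNAs called higher 1 was, miR-150. The probe of miR-181a, which tunes T cell receptor signalling in thymocytes, read 12428, 13724 and 13615 on the CD45+ arrays and 3615 and 961 on the cTEC arrays, -2.84 ± 0.53 (SE, adjusted p = 0.00741). The cTEC arrays differed from each other here, replicate 1 being the higher, yet both lay under every CD45+ array. The probe of miR-150, a miRNA of mature lymphocytes, read 3971, 3529.9 and 3119 on the CD45+ arrays and 542 and 769 on the cTEC arrays, -2.33 ± 0.13 (SE, adjusted p = 4.07e-05). The probe of miR-155, induced in activated lymphocytes, read 3315, 3064 and 2366 on the CD45+ arrays and 345 and 820.4 on the cTEC arrays, -2.02 ± 0.26 (SE, adjusted p = 0.00144). For both miRNAs replicate 2 was the higher cTEC array, and for both replicate 1 lay under the floor. All 4 members of the miR-181 family, which share the seed ACAUUCA, were lower on the scaling used, 2 of them with normexp and 0 with that percentile.

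Some miRNAs stood well above background on each of the 3 CD45+ arrays and on neither cTEC array. There were 68 of these among the 309 tested, 17 of them called lower, and 6 of the reverse kind, 2 of them called higher. Of all tested miRNAs 20.1% were lower and 10.7% higher. The background call reached lower scaled signals on the CD45+ arrays, so the 2 counts are not compared. Nor do the 68 all point to CD45+ cells: scaled means in cTECs and CD45+ cells were 496 and 383 for miR-26b and 429 and 210 for miR-320. For such miRNAs a lower limit of the fold was taken against each dim array's own weakest signal well above background, and no order is read among them. The probe of miR-142-3p, a miRNA of all blood lineages, read 2792, 5553 and 4009 on the CD45+ arrays and 306 and 600.0 on the cTEC arrays, at least 8.59-fold higher on the CD45+ arrays (adjusted p = 0.000452). Its partner strand miR-142-5p was at least 2.45-fold higher (adjusted p = 0.00646). The limit was 3.76-fold for miR-18a of the miR-17-92 cluster and 2.26-fold for miR-15a, the partner of miR-16 (adjusted p = 6.98e-06 and 0.0016). It was 3.55-fold for miR-27b, 3.00-fold for miR-425, 2.60-fold for miR-221 and 2.47-fold for miR-130b, with adjusted p-values of 7.76e-05, 0.000278, 0.00019 and 7.7e-05. These limits hold for the scaling used. With the percentile taken without the miRNAs called higher, all 8 of these miRNAs lost the call, and miR-18a, miR-130b and miR-15a had log2 fold changes of 0.0065, 0.024 and 0.0098 (adjusted p = 1, 0.488 and 0.914). The floor was set anew for that scaling, and the CD45+ arrays lay on it for miR-18a, miR-130b and miR-15a. Their values there are distances of the cTEC mean from the floor and show no rise in cTECs.

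miRNAs that most tissues use were lower too. The miR-21 probe read 13048, 14579 and 11860.1 on the CD45+ arrays and 1249 and 710.0 on the cTEC arrays, -3.80 ± 0.25 (SE, adjusted p = 7.76e-05), and both cTEC values lay more than 1 log2 unit under every CD45+ value. The probe of miR-16, which restrains the cell cycle, read 19412, 21722 and 18105 on the CD45+ arrays and 5144 and 1958 on the cTEC arrays, -2.63 ± 0.38 (SE, adjusted p = 0.00242). The probe of miR-15b, made from the same transcript as a copy of miR-16, read 9243, 10832 and 8789 on the CD45+ arrays and 2029 and 1149 on the cTEC arrays, -2.66 ± 0.26 (SE, adjusted p = 0.000409). Of all tested miRNAs 20.1% were lower. Of 8 tested members of the group of miR-15, miR-16, miR-103 and miR-107, 5 were lower, and of 9 broadly expressed miRNAs 6 were lower, with medians of -1.40 and -0.94. All 5 members of the miR-23, miR-24 and miR-27 group were lower with a median of -1.81, as were 8 of 10 members of the miR-26, miR-29 and miR-30 families with a median of -1.77. The probe of miR-29a, which targets collagen messages, read 8219.7, 7846 and 7406 on the CD45+ arrays and 1345 and 549.8 on the cTEC arrays, -3.09 ± 0.34 (SE, adjusted p = 0.000672). The miR-191 probe read 6343, 6132 and 5460.1 on the CD45+ arrays and 752 and 453 on the cTEC arrays, -3.13 ± 0.10 (SE, adjusted p = 4.38e-06). For miR-29a and miR-191 cTEC replicate 2 lay under the floor and was not well above background, so their fitted falls lean on the floor. On the scaling used, none of these 4 groups held a miRNA called higher. With the percentile taken without the miRNAs called higher, 3 of the 8, 2 of the 9, 1 of the 5 and 1 of the 10 were called lower, in the order given here.

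**Figure D2:**
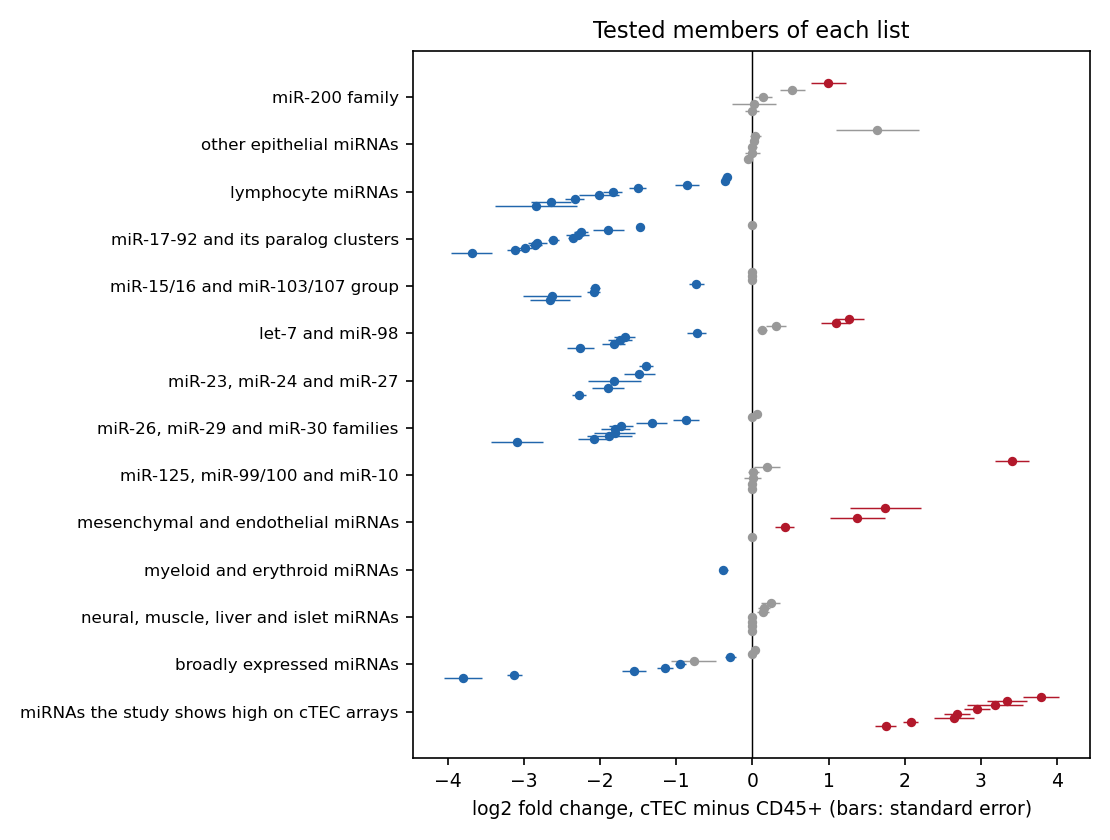
Log2 fold change, cTEC minus CD45+, of every tested member of each list, with its standard error, in red where called higher, in blue where called lower and in grey otherwise; a member at the floor on all 8 arrays is drawn at 0 without a bar. All 9 lymphocyte miRNAs and 11 of 12 members of the miR-17-92 list lie in blue at the left, and the let-7 list spans both sides.

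Of the 62 falls, 21 were well above background on both cTEC arrays, 24 on 1 and 17 on neither, and 29 lay under the floor on both. Before scaling, both cTEC arrays lay under all 3 CD45+ arrays for all 62. The cTEC arrays were dimmer, and 195 of the 309 tested miRNAs showed the same order before scaling, so this order supports no direction.

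The largest rises included strands that are rarely described. The miR-762 probe read 2951, 2725 and 3517 on the CD45+ arrays and 35627 and 49879 on the cTEC arrays, 3.79 ± 0.24 (SE, adjusted p = 7.7e-05). The miR-1224 probe read 14048, 14448 and 16740.4 on the CD45+ arrays and 127517 and 183538 on the cTEC arrays, 3.35 ± 0.26 (SE, adjusted p = 0.000154). The miR-149* probe read 1815, 1904 and 2037 on the CD45+ arrays and 13938 and 21885 on the cTEC arrays, 3.19 ± 0.37 (SE, adjusted p = 0.000764). All 6 of these cTEC values stood several times over the highest CD45+ value. The miR-3077* probe read 765, 976 and 857 on the CD45+ arrays and 6950.2 and 6355 on the cTEC arrays, 2.95 ± 0.17 (SE, adjusted p = 5.49e-05). The miR-2861 probe read 3506, 3261 and 3736 on the CD45+ arrays and 19792 and 25644 on the cTEC arrays, 2.69 ± 0.17 (SE, adjusted p = 7.7e-05), and miR-2137 read 21206, 22884 and 26981 on the CD45+ arrays and 120759 and 180447 on the cTEC arrays, 2.65 ± 0.26 (SE, adjusted p = 0.000443). The passenger strand miR-211*, from the gene of a melanocyte miRNA, gained 2.08 in log2 and miR-328* gained 1.85. For both, the cTEC mean lay under the CD45+ mean with no scaling between arrays. Most of these miRNAs are in a list that was picked as high in cTECs from these same arrays. All 8 of its members were higher here, with a median log2 fold change of 2.82, which is no independent evidence of the direction. Of all tested miRNAs 10.7% were higher. With the percentile over all mouse probes 2 of the 8 were called higher, and with no scaling between arrays 1 was.

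Among the rises of moderate G and C content, miR-125b-5p, a regulator of stem and progenitor cells, stood out in size. It read 374, 359.7 and 282 on the CD45+ arrays and 8675 and 5048 on the cTEC arrays, 3.41 ± 0.22 (SE, adjusted p = 7.76e-05). All 3 CD45+ values were under the floor, so the fitted value understates the difference. It was the single miRNA called among 6 tested of the miR-125, miR-99/100 and miR-10 list, where 10.7% of all tested miRNAs were higher. With normexp background correction all 6 were called higher, and with no scaling between arrays 0 were. The probe of miR-574-5p, built mostly of alternating G and U, read 747, 809 and 834 on the CD45+ arrays and 2440.1 and 3079 on the cTEC arrays, 1.78 ± 0.26 (SE, adjusted p = 0.00242), a direction that turned with no scaling between arrays and with the percentile over all mouse probes. Of G and C content over 60% again, the miR-744 probe read 202, 205 and 222 on the CD45+ arrays and 1436 and 2264 on the cTEC arrays and miR-1934* 123, 139 and 139 on the CD45+ arrays and 1341 and 2105 on the cTEC arrays, with log2 fold changes of 1.54 and 1.43 (adjusted p = 0.000764 and 0.00351). These 2 were singled out after their values were seen, because both cTEC arrays exceeded all CD45+ arrays before scaling. All their CD45+ values were under the floor, so both fitted values understate the differences. The passenger strand miR-346*, also over 60%, was well above background on both cTEC arrays and on no CD45+ array, and was at least 12.2-fold higher in cTECs (adjusted p = 0.0023).

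**Figure D3:**
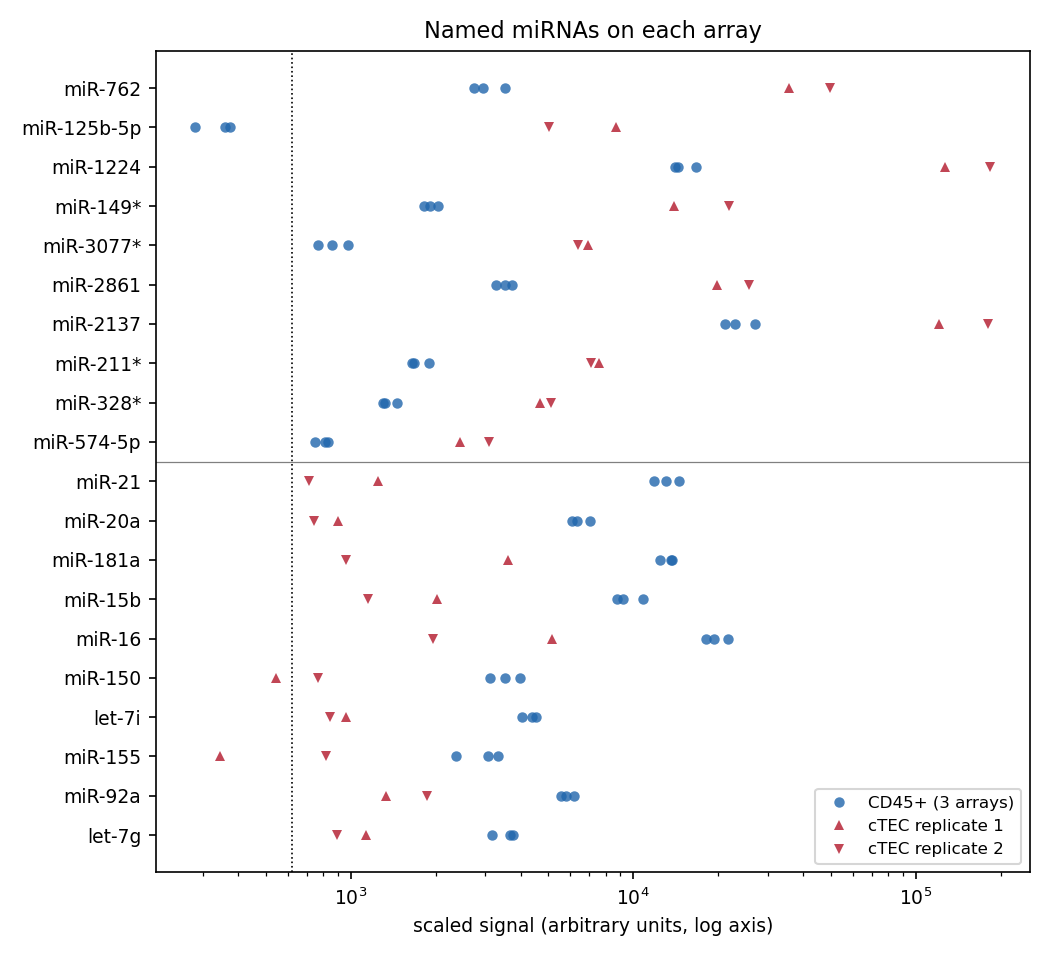
Scaled signal (arbitrary units, log axis) on each of the 3 CD45+ arrays (circles) and on cTEC replicates 1 and 2 (upward and downward triangles) for the 10 largest rises, above the line, and the 10 largest falls, below it; the dotted line is the floor of 621. In every row the cTEC triangles and the CD45+ circles are apart, and the triangles of miR-181a and miR-16 are far from each other.

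Base composition moved with the direction of the difference. The target sequences had a median G and C content of 63.6% for the miRNAs called higher, 45.8% for those called lower and 47.6% for all tested. Of the 68 miRNAs that stood above background on all 5 arrays, 27 exceeded 60% G and C, and of these 17 were higher and 1 lower, with a median log2 fold change of 1.29. Of the 17 miRNAs under 45%, 2 were higher and 13 lower, with a median log2 fold change of -1.68. The 24 between these bounds had 9 higher, 7 lower and a median of 0.27. Over the 68 miRNAs, log2 fold change and G and C content correlated at r = 0.654, across miRNAs of the same 5 arrays, which are not independent replicates. The mTEC minus CD45+ differences of these miRNAs correlated with it at r = 0.452, and the differences between cTEC replicates 2 and 1 at r = 0.370. The dimmer replicate 2 exceeded replicate 1 by a median of 0.48 in log2 among the miRNAs over 60%, and the median was -0.15 among those under 45%. The letters GGG were found in the target strand of 57.6% of the miRNAs called higher and 24.2% of those called lower, against 24.9% of all mouse probes, 28.8% of the tested miRNAs and 39.7% of those above background on all 5 arrays. The part that hybridization or labelling of such sequences, or the dimness of the cTEC arrays, had in the rises was not tested.

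**Figure D4:**
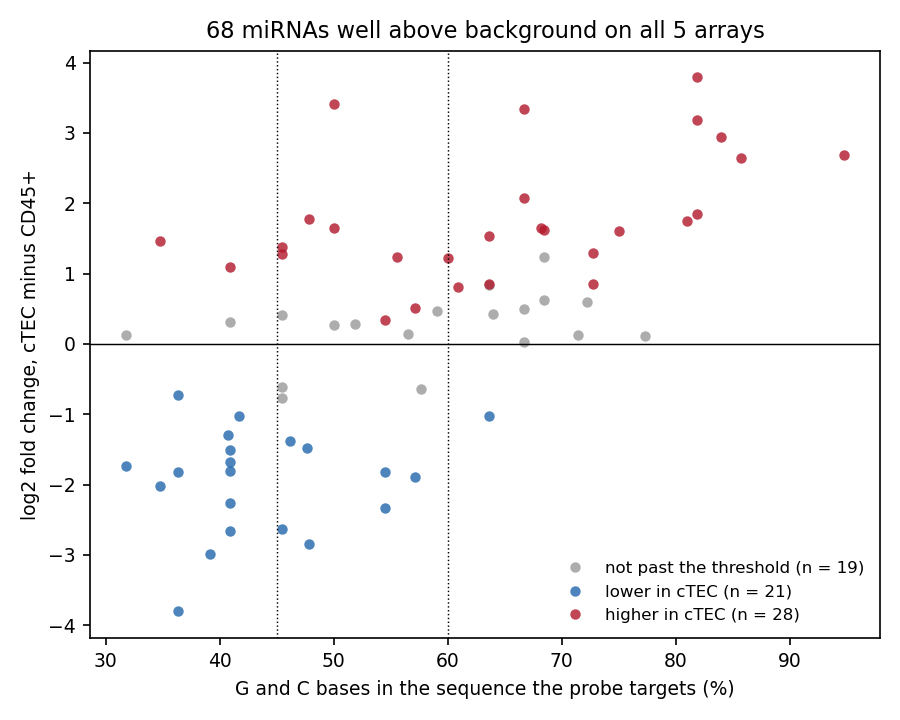
Log2 fold change, cTEC minus CD45+, against the percentage of G and C bases in the target of the probe, for the 68 miRNAs that passed the background call on all 5 arrays; dotted lines stand at 45% and 60%. Right of 60%, 17 of 27 points are called higher (red), and left of 45%, 13 of 17 are called lower (blue).

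On the scaling used, the let-7 family, which promotes differentiation, split within itself, and each of its 9 members passed the background call on all 5 arrays. The let-7b probe read 2626, 2932 and 2295 on the CD45+ arrays and 7456 and 5321 on the cTEC arrays, 1.27 ± 0.19 (SE, adjusted p = 0.00257), and let-7c read 3460.5, 3949.7 and 3010.2 on the CD45+ arrays and 8721 and 6235 on the cTEC arrays, 1.10 ± 0.19 (SE, adjusted p = 0.00509). Both were higher in cTECs after scaling, though with no scaling, or with the percentile taken over all mouse probes, their cTEC means lay under the CD45+ means. The let-7i probe read 4383, 4518 and 4049 on the CD45+ arrays and 962 and 848 on the cTEC arrays, -2.26 ± 0.18 (SE, adjusted p = 0.000154), and let-7g read 3669, 3770.1 and 3175 on the CD45+ arrays and 1137 and 894 on the cTEC arrays, -1.82 ± 0.16 (SE, adjusted p = 0.000233). The log2 fold changes of let-7a, let-7d and let-7f were -0.73, -1.68 and -1.74 (adjusted p = 0.00478, 0.000233 and 0.000282), and let-7a turned to 0.93 (adjusted p = 0.00256) with the percentile taken without the miRNAs called higher. With that percentile 3 members were called higher and 0 lower, so let-7d, let-7f, let-7g and let-7i lost their calls. With no scaling or the percentile over all mouse probes 0 were called higher and 6 lower. The members let-7e and miR-98 did not pass, at log2 fold changes of 0.31 and 0.13 (adjusted p = 0.176 and 0.28), but miR-98 was lower in cTECs and passed with no scaling (-0.88, adjusted p = 0.00593) and with the percentile over all mouse probes (-0.49, adjusted p = 0.00121). Of the strands shown above, let-7c differs from let-7a at 1 base, let-7b at 2, let-7g at 2 and let-7i at 4.

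**Figure D5:**
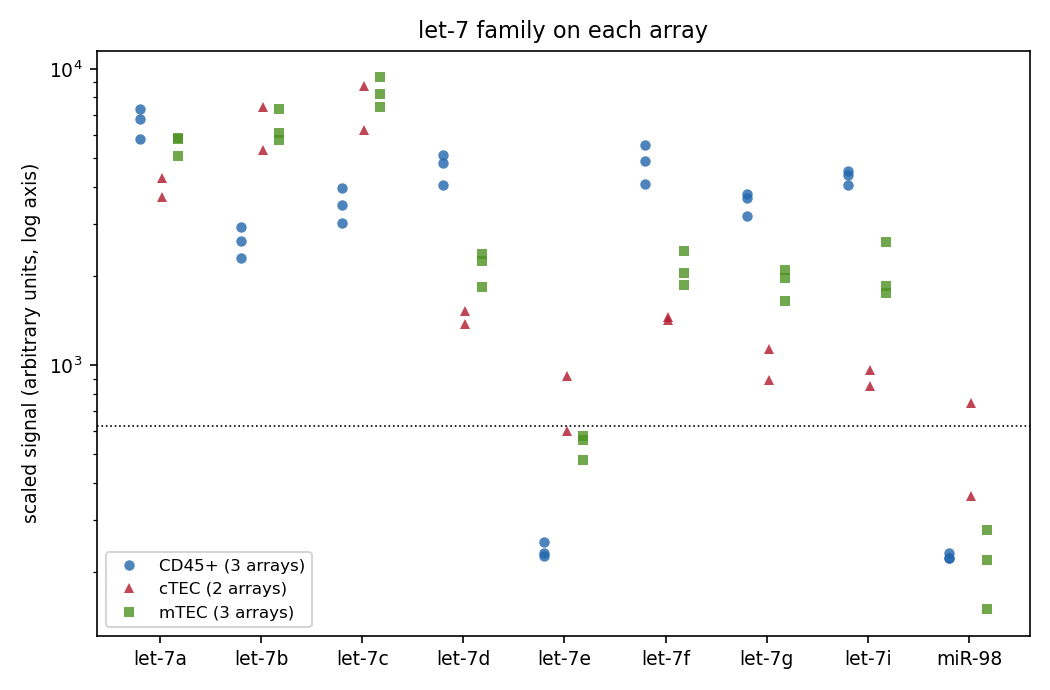
Scaled signal (arbitrary units, log axis) of each let-7 family member on the 3 CD45+, 2 cTEC and 3 mTEC arrays; the dotted line is the floor of 621. The cTEC triangles are over the CD45+ circles for let-7b and let-7c and under them for let-7a, let-7d, let-7f, let-7g and let-7i, on the scaling used here; let-7a, let-7b, let-7c and miR-98 turned with other scalings.

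Ratios of probes within an array do not depend on the scaling of the array. The let-7b to let-7i ratio of unscaled signals was 0.599, 0.649 and 0.567 on the CD45+ arrays and 7.75 and 6.27 on the cTEC arrays, an 11.5-fold difference. The let-7c to let-7g ratio was 0.943, 1.05 and 0.948 against 7.67 and 6.98, a 7.48-fold difference. The miR-125b-5p to miR-21 ratio was 0.0286, 0.0247 and 0.0238 against 6.94 and 7.11, a 274-fold difference. The miR-762 to miR-21 ratio was 0.226, 0.187 and 0.297 against 28.5 and 70.3, a 193-fold difference. These pairs were chosen from miRNAs called in opposite directions on these arrays, so the separation of the groups was set by the choice. A pair of miRNAs both called lower, miR-16 to miR-21, also differed, at 1.49, 1.49 and 1.53 against 4.12 and 2.76. Unscaled miR-21 read 168 on cTEC replicate 2, near that array's weakest signal well above background of 147, so ratios to it are imprecise there. The ratios are a description, with no test, and do not show which probe of a pair changed.

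The scaling bore on the rises and the falls in different ways. Before scaling, both cTEC arrays exceeded all 3 CD45+ arrays for 9 of the 33 miRNAs called higher, miR-762, miR-1224, miR-149*, miR-125b-5p, miR-744, miR-1934*, miR-346*, miR-143 and miR-145. For 16 of the 33 the arrays overlapped, and for 8 both cTEC arrays lay under the CD45+ arrays. Of all 309 tested miRNAs, 23 had both cTEC arrays over all 3 CD45+ arrays before scaling. Unscaled miR-762 read 5405, 5382 and 5068 on the CD45+ arrays and 17949 and 11781 on the cTEC arrays. Unscaled miR-125b-5p read 684, 710.4 and 407 on the CD45+ arrays and 4371 and 1192 on the cTEC arrays. Unscaled miR-2137 read 38840.0, 45199.9 and 38879.9 on the CD45+ arrays and 60839.7 and 42620.0 on the cTEC arrays, with overlapping groups. With no scaling between arrays, limma called miR-762 and miR-1934* alone as higher and called 2 of the 33 rises, miR-2145 and miR-1195, as lower. The median log2 fold change of all tested miRNAs moved from 0 to -0.43. Across 8 ways of scaling or background correction, 2 of the 33 rises and 17 of the 62 falls were called each time. Each planned way kept 54 to 62 of the 62 falls and between 2 and 33 of the 33 rises. A percentile without the miRNAs called higher, a scaling added after seeing the data, kept 17 of the falls and 31 of the rises, and called 1 of the falls, let-7a, in the other direction. Its floor was set anew too, so a miRNA whose CD45+ values lay on that floor could not be called lower.

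Markers of the sorted cells were compared with the labels. For 7 epithelial miRNAs, 5 and 3 were well above background on cTEC replicates 1 and 2, all 7 on each mTEC array and between 0 and 3 on the CD45+ arrays. Their summed scaled signal was 8619.8 and 4442 in cTECs, 623 to 704 in CD45+ cells and 36799.5 to 39058 in mTECs. Neither miR-429 nor miR-203 was above background on a cTEC array. The probe of miR-200c, which holds cells in an epithelial state, read 149, 153 and 121 on the CD45+ arrays and 1636 and 946 on the cTEC arrays, 1.00 ± 0.23 (SE, adjusted p = 0.0191), the single call among 5 tested members of the miR-200 family. Of all tested miRNAs 10.7% were higher. With normexp background correction all 5 members were called higher. With the deposited values, no scaling or the percentile over all mouse probes 0 were. With a floor of 129 the log2 fold change was 3.09 for miR-200c, 2.13 for miR-200a and 1.78 for miR-141. The miR-200b probe read 112, 78.3 and 99.9 on the CD45+ arrays and 1066 and 757 on the cTEC arrays. It was well above background on both cTEC arrays and on no CD45+ array, at least 8.19-fold higher in cTECs. On the floored scale it was not called (adjusted p = 0.0576). All its CD45+ values lay under the floor, so its log2 fold change of 0.52 (95% interval 0.13 to 0.92) is a distance to the floor. With a floor of 129 the value was 2.76 (adjusted p = 2.51e-05). On the scaling used, none of 6 tested members of the list of other epithelial miRNAs passed, nor any of 7 tested neural, muscle, liver and islet miRNAs, with medians of 0.01 and 0. With normexp background correction 5 of the 6 and all 7 were called higher. Quantile normalization and the deposited values each called 1 of the 6 higher and miR-31 lower. miR-31 was also called lower with no scaling and with the percentile over all mouse probes. The probe of miR-205, found in stratified and glandular epithelia, read 99.6, 92.4 and 88.3 on the CD45+ arrays and 3856 and 997 on the cTEC arrays. Both cTEC values were over all CD45+ values, with replicate 1 far over replicate 2, and the adjusted p was 0.0741, with a log2 fold change of 1.64 and a 95% interval of 0.31 to 2.97. All CD45+ values of miR-205 lay under the floor, so 1.64 is a distance to the floor. With a floor of 129 the value was 3.89 (adjusted p = 0.000216).

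For 6 lymphocyte markers, 6 were well above background on each CD45+ array, and 4 and 3 on cTEC replicates 1 and 2. Their summed scaled signal was 25991 to 30137 in CD45+ cells and 5861 and 4102 in cTECs, where miR-142-3p and miR-142-5p were not above background. In mTECs the sum was 3368 to 4742, with 6, 4 and 6 of the markers well above background. For 7 markers of mesenchyme and endothelium, which no gate here selected, 3 and 2 were well above background on cTEC replicates 1 and 2, and 1 on each CD45+ array. Their summed scaled signal was 7872 and 3759 in cTECs, 477 to 596 in CD45+ cells and 6817 to 7157 in mTECs, where 3, 4 and 4 were well above background. The probe of miR-143, abundant in smooth muscle and fibroblasts, read 128, 82.2 and 80.2 on the CD45+ arrays and 3842 and 1164 on the cTEC arrays, at least 18.4-fold higher on the cTEC arrays (adjusted p = 0.0353). Its log2 fold change was 0.87 without cTEC replicate 1 and 2.63 without cTEC replicate 2. Its cluster neighbour miR-145 gained 0.42 (adjusted p = 0.0449). It was well above background on 1 cTEC array and 0 CD45+ arrays, so 0.42 is a distance to the floor. With a floor of 129 the gain was 2.52. The probe of miR-126-3p, the endothelial miRNA, read 259.9, 189 and 248 on the CD45+ arrays and 2615 and 1013 on the cTEC arrays, 1.38 ± 0.37 (SE, adjusted p = 0.0335). Its CD45+ values lay under the floor too, and a floor of 129 gave 2.83. Of the 4 tested members of the longer mesenchymal and endothelial list these 3 were higher, with a median of 0.90, where 10.7% of all tested miRNAs were higher. With the percentile over all mouse probes, no scaling or the deposited values 0 of the 4 were called higher. Quantile normalization called 2 of them higher and normexp background correction 4. The probes of miR-126-5p, miR-199a-3p and miR-199a-5p were above background on 0 of 8 arrays. None of 4 markers of myeloid and erythroid cells was well above background on a cTEC array, and miR-223 was on all 3 CD45+ arrays. Their summed scaled signal was 935 to 1018 in CD45+ cells, and 334 and 1748 on cTEC replicates 1 and 2. The calls of miR-143, miR-126-3p, miR-145 and miR-200c were near the threshold. They were lost without any 1 of the CD45+ arrays (adjusted p of 0.0569 to 0.116), with the 5 arrays fitted alone (0.0648 to 0.137) and with the replicate block (0.0547 to 0.121). Each passed without either cTEC array, a fit in which the spread of cTECs is taken from the CD45+ and mTEC arrays, but the size moved. Without replicates 1 and 2 in turn the log2 fold change was 0.69 and 2.07 for miR-126-3p, 0.20 and 0.64 for miR-145, and 0.60 and 1.39 for miR-200c. The miR-205 difference, 0.65 and 2.63 in these fits, then passed too (adjusted p = 0.0332 and 0.000441). The part of other cell types in any of these signals was not tested.

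The cTEC arrays differed from each other. Replicate 2, the dimmer array, was the higher one for 22 of the 33 miRNAs called higher. For miR-762 it read 49879 against 35627 on replicate 1, and for miR-1224 183538 against 127517. Replicate 1 was the higher for miR-143, miR-126-3p, miR-205, miR-181a and miR-16, by 2.58 to 3.87 times. Over the 68 miRNAs measured on all 5 arrays, replicate 2 exceeded replicate 1 for 47, with a median difference of 0.31 in log2. Without replicate 1 the counts became 110 higher and 60 lower, and without replicate 2 they became 34 and 61.

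The mTEC arrays give a second epithelium on the same slide. The comparisons share the CD45+ or the cTEC arrays and their values are not independent of each other. Against CD45+ cells 74 miRNAs were called in mTECs (23.9%), 28 higher (9.06%) and 46 lower (14.9%). Of the 62 falls in cTECs, 45 were called lower in mTECs too and 1 was called higher. Of the 33 rises, 15 were called higher in mTECs too and 0 lower. In mTECs 11 of the 12 tested members of the miR-17-92 list and 7 of the 9 lymphocyte miRNAs were lower. Between the epithelia 70 were called (22.7%), 50 higher in mTECs (16.2%) and 20 lower (6.47%). The probe of miR-34a, a target of p53, read 1919.7, 1859 and 1731 on the CD45+ arrays and 449 and 489.7 on the cTEC arrays, -1.56 ± 0.16 (SE, adjusted p = 0.0005), but 8139, 6334 and 5487 on the mTEC arrays, a difference of 3.40 ± 0.16 (SE, adjusted p = 4.35e-05) between mTECs and cTECs. Both cTEC values lay under the floor and 1 of the 2 arrays was well above background, so the cTEC side of these differences is the floor, with no spread of its own. The miR-21 probe read 8442, 7948 and 6621 in mTECs, a difference of 3.02 ± 0.25 (SE, adjusted p = 0.000329). Both miRNAs were thus higher in the medullary than in the cortical epithelium. The miR-762 probe read 8970.2, 10769 and 13957 in mTECs, a difference of -1.93 ± 0.24 (SE, adjusted p = 0.00197), so its signal in mTECs lay between those of the other groups. In the same way the miR-1224 probe read 27706, 37846 and 47269, a difference of -2.06 ± 0.26 (SE, adjusted p = 0.00207). The epithelial miR-200c read 8216, 8074 and 6606 in mTECs, a difference of 2.61 ± 0.23 (SE, adjusted p = 0.000425). For miR-125b-5p and let-7b the mTEC minus cTEC differences were -0.21 and 0.01, and neither passed the threshold (adjusted p = 0.674 and 1).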

How the data were processed

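Each of 8 preparations (3 CD45+, 2 cTEC, 3 mTEC) was labelled with Cy3 and hybridized alone to 1 array, all on 1 slide. As source data the authors deposited scanner output, holding spot intensity with and without the background subtracted by Feature Extraction 10.7.3.1 per the file headers, and a table of log2 values that they had quantile normalized. The fold changes, ratios and p-values of their own comparisons in that table were not used. Here the background-subtracted intensity was used, and the deposited log2 values served as an alternative.

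Outlier spots were dropped. Signals were divided by the array's 75th percentile over the 65 mouse probes that passed the background call on all 8 arrays, brought to a common level and floored at 621, and the 5 spots of each probe were then averaged as log2 values. A probe counted as well above background when over 50% of its spots did, and was tested when it did so on at least 2 arrays (309 of 1040). The 2648 probes that are not in the mouse table were left out. limma 3.58.1 in R 4.3.3 fitted 1 model of 3 group means to the 8 arrays (5 residual and 0.90 prior degrees of freedom), with Benjamini-Hochberg adjustment. The 83 miRNAs at the floor throughout entered it as not different. The floor was set with the signals and earlier results known. Fold changes are thus on a floored log2 scale, and a group wholly at the floor adds no spread, so its standard errors are small. The number of arrays limits the precision. The floor and the limma fit were tried on simulated data with the same spread on every array. The outlier step, the scaling and the background call were not simulated.

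The members and lists were chosen with earlier results of these data known. The text names members of the lists, the 10 largest rises and falls with an adjusted p under 0.05, no overlap and all 5 arrays well above background, and up to 8 miRNAs in each direction measured in only 1 of the 2 groups. The labels call replicates biological and do not say which mice went into each. Whether replicate numbers pair the arrays is not stated, and the arrays were not paired in the fit. Deviations of CD45+ and cTEC arrays of the same number correlated at 0.05 and -0.23. These values cannot decide it, since the deviations of 2 cTEC arrays from their mean mirror each other. Alternatives covered scaling, background, floor, filter, spot summary, model, blocks and each array left out.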

Additional observations from a re-analysis of the deposited data

Results flagged for a closer look

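Some of the named miRNAs differed between the epithelia, so that the effect against CD45+ cells was not the same in mTECs as in cTECs. The test was the mTEC minus cTEC contrast of the same limma model, and values are log2 differences ± SE with adjusted p-values. No explanation was tested for any of them.

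miR-34a showed opposite directions, -1.56 in cTECs and 1.84 in mTECs, a difference of 3.40 ± 0.16 (SE, adjusted p = 4.35e-05), but both its cTEC values lay under the floor, so these are distances to the floor with no spread between the cTEC arrays. For miR-21 the difference from CD45+ cells was -3.80 in cTECs and -0.78 in mTECs, where it did not pass (adjusted p = 0.053), a difference of 3.02 ± 0.25 (SE, adjusted p = 0.000329). Among the other falls chosen by the naming rule, the mTEC minus cTEC difference was 1.55 ± 0.38 (0.0325) for miR-16, 1.22 ± 0.26 (0.019) for miR-155, 1.17 ± 0.18 (0.00412) for let-7i, 1.16 ± 0.09 (0.000296) for miR-20a and 0.93 ± 0.16 (0.00691) for let-7g. It was 0.78 ± 0.10 (0.00226) for miR-425, 0.74 ± 0.09 (0.00207) for miR-27b and 0.55 ± 0.08 (0.00317) for miR-221, which were not well above background on either cTEC array.

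For 9 of the rises chosen by the naming rule the difference was negative, the mTEC arrays being lower. It was -2.19 ± 0.17 (0.00026) for miR-3077*, -2.06 ± 0.26 (0.00207) for miR-1224, -1.97 ± 0.37 (0.0103) for miR-149*, -1.96 ± 0.26 (0.00247) for miR-2137 and -1.93 ± 0.24 (0.00197) for miR-762. The difference was -1.79 ± 0.17 (0.000595) for miR-2861, -1.73 ± 0.10 (7.11e-05) for miR-211*, -1.44 ± 0.26 (0.00914) for miR-574-5p and -1.10 ± 0.16 (0.00319) for miR-346*. The comparisons share arrays. The floor set by cTEC replicate 2 enters the values of miR-34a, miR-155, miR-425, miR-27b, miR-221 and miR-346*, which lay under it on at least 1 array.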

How the results depend on the processing

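Against 95 calls (33 higher, 62 lower), the percentile over all mouse probes gave 6 higher and 114 lower, no scaling 2 and 111, and the deposited table gave 26 higher and 112 lower. Normexp background correction with an offset of 50 gave 251 calls (196 higher), a floor of 129 gave 200 (119 higher) and a floor of 67.0 gave 224 (139 higher). Only the probes well above background on all 5 arrays, 68 in number, gave 52 calls (24 lower). Array weights, whose estimate did not converge, gave 2 calls (2 higher, 0 lower). The weights were 0.0019 for each cTEC array, 9.94 to 14.0 for the CD45+ arrays and 4.61 to 6.84 for the mTEC arrays. The percentile without the miRNAs called higher, added after seeing the data, gave 55 calls (17 lower). The cause of these shifts was not tested. The replicate number as a replicate block gave 86 calls, 26 higher and 60 lower. Quantile normalization, filters on dim probes, the spot median, the 5 arrays alone, an intensity trend and the slide row stayed within 1.5 times of each count, except the filters named. Leaving out 1 array in turn gave 82 to 170 calls, 22 to 110 higher and 59 to 63 lower, with 170 calls (110 higher) without cTEC replicate 1. The number of miRNAs measured on the cTEC and not the CD45+ arrays then ranged from 6 to 17, with 17 without cTEC replicate 1 and 14 without replicate 2.

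Directions turned for a few named miRNAs. With no scaling the log2 fold change was -0.25 for miR-211*, -0.48 for miR-328*, -0.55 for miR-574-5p, -1.06 for let-7b, -1.23 for let-7c and -0.88 for miR-98. With the percentile over all mouse probes it was -0.026 for miR-328*, -0.092 for miR-574-5p, -0.60 for let-7b, -0.78 for let-7c and -0.49 for miR-98, which passed the threshold under both (adjusted p = 0.00593 and 0.00121). Without the miRNAs called higher it was 0.0065 for miR-18a, 0.024 for miR-130b, 0.0098 for miR-15a, 0.93 for let-7a, which then passed the threshold (adjusted p = 0.00256), and 0.058 for miR-223. The floor was set anew for this scaling. Apart from let-7a, these values are distances of the cTEC mean from that floor, with the CD45+ arrays on it, and show no rise in cTECs. The low signal of the cTEC arrays sets the floor and limits every call under it.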
